A study of Caenorhabditis elegans with 6 samples.

Results

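miR-243 is a *Caenorhabditis elegans* microRNA (miRNA) whose hairpin precursor gives 2 mature arms, cel-miR-243-5p and cel-miR-243-3p. Of 437 mature miRNAs listed for every library, 360 had a count in some library, and from 286 to 319 were detected in each. Both arms were found by name among the 437, and both passed the filter on low counts that left 208 miRNAs for testing. That filter asks for enough counts in as many libraries as a group holds. The 5p arm could pass it on its cadmium libraries alone. The cadmium group was wild-type N2 worms kept from the L4 larval stage at 20 °C on agar with OP50 bacteria and 60 µmol/L cadmium chloride, and the control group was untreated N2 worms. Each group had 3 libraries made from whole worms. The labels give neither the length of the exposure nor the number of worms per library, nor whether libraries came from separate cultures, so spreads between libraries may be technical in part.

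Most worm miRNAs are carried by the Argonaute proteins ALG-1 and ALG-2, which hold the guide arm and repress mRNAs with partial matches to its seed. RDE-1 is a different Argonaute, needed for RNA interference started by double-stranded RNA. miR-243-3p is known in *C. elegans* for being loaded into RDE-1 to an unusual degree and for directing the production of secondary small interfering RNAs from a highly complementary mRNA, Y47H10A.5. The 5p arm is the opposite strand of the same duplex, the strand that is usually discarded. The count files hold mature miRNAs, so neither RDE-1 nor Y47H10A.5 was measured here.

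The hairpin (WBGene00003337) lies on chromosome IV at 4450779 to 4450876 on the plus strand of WBcel235, the build named in the submitters' processing notes. It sits in intron 1 (4450211 to 4451572) of R08C7.12b.1, which is transcribed in the same direction and has 7 exons. That is the only 1 of 4 annotated R08C7.12 transcripts whose span holds the hairpin. The annotated 5p arm runs from 4450798 to 4450816 and is 19 bases long. The annotated 3p arm runs from 4450839 to 4450861 and is 23 bases long, with 22 bases between the arms. Among 458 mature arms annotated in the worm, the median length was 22 bases and 8 arms (1.75%) had 19 bases or fewer. An arm of 23 bases was common, with 138 such arms (30.1%). The 4-base difference in length between the miR-243 arms was matched or exceeded in 9 of 198 hairpins with 2 annotated arms (4.55%). Which read lengths were counted towards each arm is not given in the sources used here.

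The hairpin had no close neighbour among annotated hairpins on its chromosome with a listed miRNA. Other hairpins were not searched. The nearest hairpin before it with a listed miRNA was mir-242, 176436 bases away on the same strand. miR-242 had 337 ± 133 CPM in cadmium libraries and 240 ± 93.7 CPM in control libraries (CPM, the count scaled to the library total after adjustment by trimmed mean of M-values, TMM; SD, n = 3 each), a log2 difference of 0.49 (SE 0.34) that did not pass the test (adjusted p = 0.347, edgeR's quasi-likelihood test). The nearest after it was mir-8191, 572051 bases away on the minus strand, whose 3p arm had 0 counts in all 6 libraries and whose 5p arm had 0 to 6 counts and was not tested.

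Library totals ran from 2580305 to 3781534 counts under cadmium and from 1640693 to 3917414 in controls. Across the tested miRNAs, log-scale levels of libraries of the same group had r of 0.987 to 0.994, and those of different groups had r of 0.970 to 0.978. Markers of the tissues of a whole worm were present in every library, with at least 37 counts for each of 3 neuronal miRNAs, 2843 for the intestinal miR-60-3p and 291175 for the muscle miR-1-3p. let-7-5p and lin-4-5p, markers of late larvae and adults, summed to between 7960 and 13249 CPM under cadmium and between 6248 and 9394 CPM in controls. Of these 7 muscle, intestinal, neuronal and stage markers, 0 were called by edgeR's quasi-likelihood test and 0 by DESeq2, and 1, let-7-5p, had an unadjusted p under 0.05. The groups overlapped in the sum of each list. The markers of embryos and germline, the 8 3p arms of the miR-35 family, summed to between 17130 and 29401 CPM under cadmium and between 63540 and 109914 CPM in controls. All 8 of them were called lower, with none at 0 in any library, where 12% of tested miRNAs were called lower. In whole worms, fewer cells of a type and less RNA per cell cannot be told apart. With the miR-35 family left out of the fit, an alternative added after the data were seen, the miR-243 differences described below were 2.30 on the log2 scale for 5p and 0.82 for 3p.

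The members were selected on values of these same libraries, the levels of both arms, their ratio and their difference between cadmium and control worms. The differences that follow are therefore descriptions and carry no p-value. Both arms were higher in cadmium libraries than in control libraries. The 5p arm, the rare strand, was 5.16-fold higher on average, and the 3p arm, the strand known from RDE-1, was 1.76-fold higher.

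Counts of miR-243-5p were 75, 37 and 29 in cadmium replicates 1 to 3 and 2, 12 and 12 in control replicates 1 to 3. On the TMM scale its levels were 21.3, 10.9 and 13.0 CPM under cadmium and 1.07, 4.64 and 3.04 CPM in controls. Every cadmium library lay above every control library, with the lowest cadmium level 2.36 times the highest control level. Counting error was wide for so few reads. The exact Poisson 95% interval of the lowest cadmium library ran from 7.70 to 15.1 CPM, and that of the highest control library from 2.40 to 8.10 CPM, so these neighbouring intervals overlapped. Control replicate 1 was also the shallowest library, in which a floor of 3 counts corresponds to 1.60 CPM, and its 2 counts of the 5p arm fell below that floor. The group levels were 15.1 ± 5.48 CPM under cadmium and 2.92 ± 1.79 CPM in controls (SD, n = 3 each), and the fitted log2 difference was 2.30 (SE 0.45).

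Counts of miR-243-3p were 1715, 1304 and 816 in cadmium replicates 1 to 3 and 547, 471 and 907 in control replicates 1 to 3. Its TMM-scaled levels were 486, 385 and 364 CPM under cadmium and 292, 182 and 230 CPM in controls. The groups did not overlap on this scale, and the lowest cadmium library exceeded the highest control library 1.25-fold. Counting intervals of those 2 libraries were apart, at 339.8 to 390.3 CPM in cadmium replicate 3 and 268 to 318 CPM in control replicate 1. On the authors' CPM scale, which divides by the library total alone, the groups did overlap, since cadmium replicate 3 had 316 CPM and control replicate 1 had 333 CPM. The group levels were 412 ± 65.2 CPM under cadmium and 235 ± 55.2 CPM in controls (TMM scale, SD, n = 3 each), with a fitted log2 difference of 0.81 (SE 0.24). Summed over both arms, the hairpin gave 427 ± 70.4 CPM under cadmium and 238 ± 53.5 CPM in controls.

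**Figure D1:**
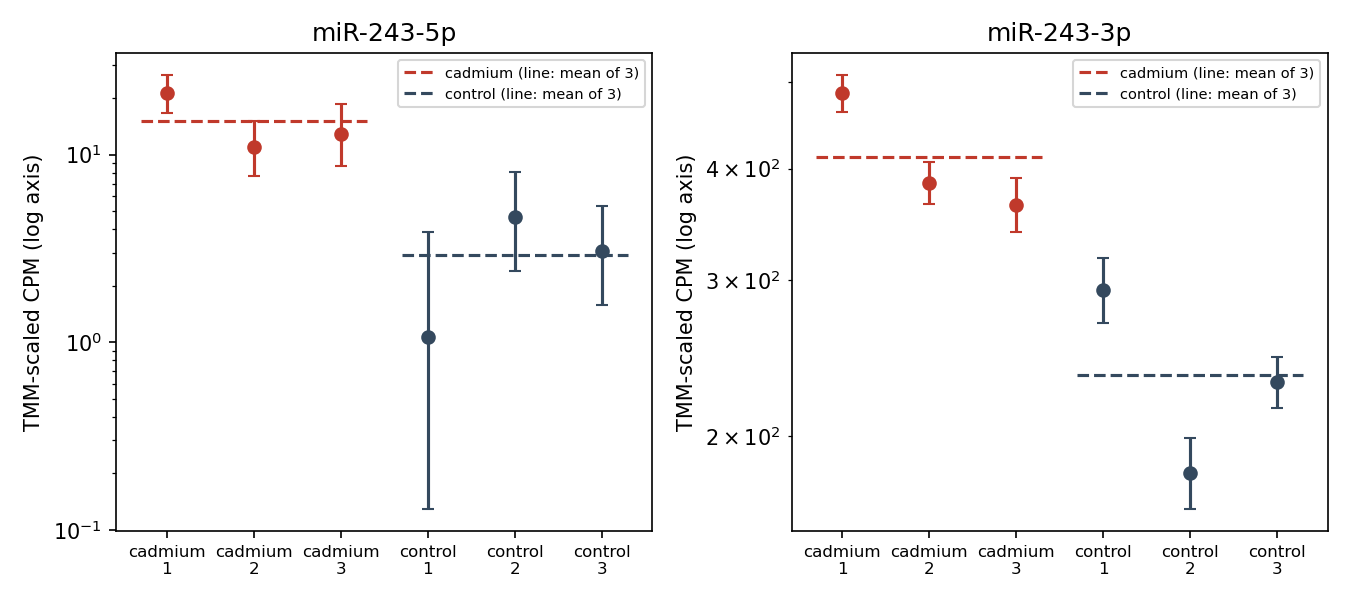
Level of miR-243-5p (left) and miR-243-3p (right) in each library, in TMM-scaled CPM on log axes that differ between panels; points are libraries, bars are exact Poisson 95% intervals for counting error only, and dashed lines are means of 3 libraries. The 3 cadmium libraries lie above the 3 control libraries for both arms, and the bars of 5p are wider than those of 3p, most of all in control replicate 1 with its 2 counts.

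The arms did not follow each other from library to library in both groups. Under cadmium, replicate 1 had the highest level of both arms. In controls, replicate 1 had the highest level of 3p and the lowest level of 5p. That 5p level came from 2 counts. Its counting interval, 0.129 to 3.86 CPM, overlapped those of control replicates 2 (2.40 to 8.10 CPM) and 3 (1.57 to 5.32 CPM). The order of control libraries in 5p is therefore uncertain. The spread within groups was larger for 5p, whose coefficient of variation was 36.4% under cadmium and 61.3% in controls, than for 3p, where it was 15.8% under cadmium and 23.5% in controls. These spreads include counting error, which is larger for 5p with its few reads. For 3p, the counting intervals of the 3 control libraries (268 to 318, 166 to 199 and 215 to 246 CPM) did not overlap. Under cadmium, the interval of replicate 1 (464 to 510.0 CPM) lay above those of replicate 2 (365 to 407 CPM) and replicate 3, which overlapped.

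By level, the 3p arm stood in the upper part of the tested miRNAs and the 5p arm in the lower part, near the bottom only in controls. miR-243-3p held place 70 of 208 by mean level under cadmium and place 79 in controls. Under cadmium it lay between miR-46-5p at 436 CPM and miR-785-3p at 348 CPM, and in controls between miR-242 at 239.8 CPM and miR-355-5p at 215 CPM. miR-243-5p held place 148 under cadmium and place 207 in controls. Its low place in controls follows in part from the filter, which it could pass on its cadmium libraries alone. In controls the level below it was that of miR-239b-5p at 0.307 CPM, and that above it, miR-4929 at 3.13 ± 1.37 CPM, was within its SD of 1.79 CPM. Averaged over all 6 libraries, a mean that mixes the groups, 3p was place 73 and 5p place 172, and a neighbour in that order need not be close within a group. Next to 3p, miR-252-5p had 304 ± 31.5 CPM under cadmium and 395 ± 36.1 CPM in controls, and miR-233-3p had 299.7 ± 29.4 CPM under cadmium and 354 ± 6.68 CPM in controls. Also next to it, miR-236-3p had 332 ± 121 CPM under cadmium and 275 ± 90.9 CPM in controls, within its own SD of the 3p arm in both groups. Next to 5p, miR-800-3p had 9.68 ± 1.49 CPM under cadmium and 9.34 ± 0.867 CPM in controls, and miR-791-5p had 9.06 ± 1.83 CPM under cadmium and 8.81 ± 0.500 CPM in controls. miR-1824-5p had 11.6 ± 3.10 CPM under cadmium and 6.63 ± 2.03 CPM in controls, and miR-4937 had 12.9 ± 7.53 CPM under cadmium and 4.55 ± 2.13 CPM in controls. Among all 437 listed names, the place of 5p ran from 140 to 160 in cadmium libraries and from 191 to 236 in control libraries. That of 3p ran from 62 to 71 in cadmium libraries and from 72 to 82 in control libraries.

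Across all 208 tested miRNAs, 45 were called by edgeR's quasi-likelihood test at an adjusted p under 0.05 (21.6%), 20 of them higher under cadmium (9.62%) and 25 lower. Both arms of miR-243 were among the 20, and nothing is read from this, since the arms were selected on that contrast. By size of the fitted difference, 5p was place 4 and 3p place 20 from the top, where the median over all tested miRNAs was 0.0039. These places are among filtered miRNAs only, and 5p could pass the filter on its cadmium libraries alone. Groups that did not overlap in the higher direction were seen for 37 miRNAs (17.8%). The 3p arm was no longer among the called miRNAs with total-count scaling, where its log2 difference was 0.63 and the median over all miRNAs moved to −0.16. It was also not called with limma on log2 of the deposited CPM at either pseudocount, without cadmium replicate 1 or 2, without control replicate 2 or 3, or with the replicate number as a block. The 5p arm missed the call with the replicate block and kept it in the other 15 alternatives run. Nothing is read from that tally either, since the arm was selected on this contrast. Total-count scaling also changed the split of all calls to 9 higher and 30 lower. The number of calls was 27 without cadmium replicate 2, 29 without cadmium replicate 3, 29 without control replicate 1 and 22 without control replicate 3.

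**Figure D2:**
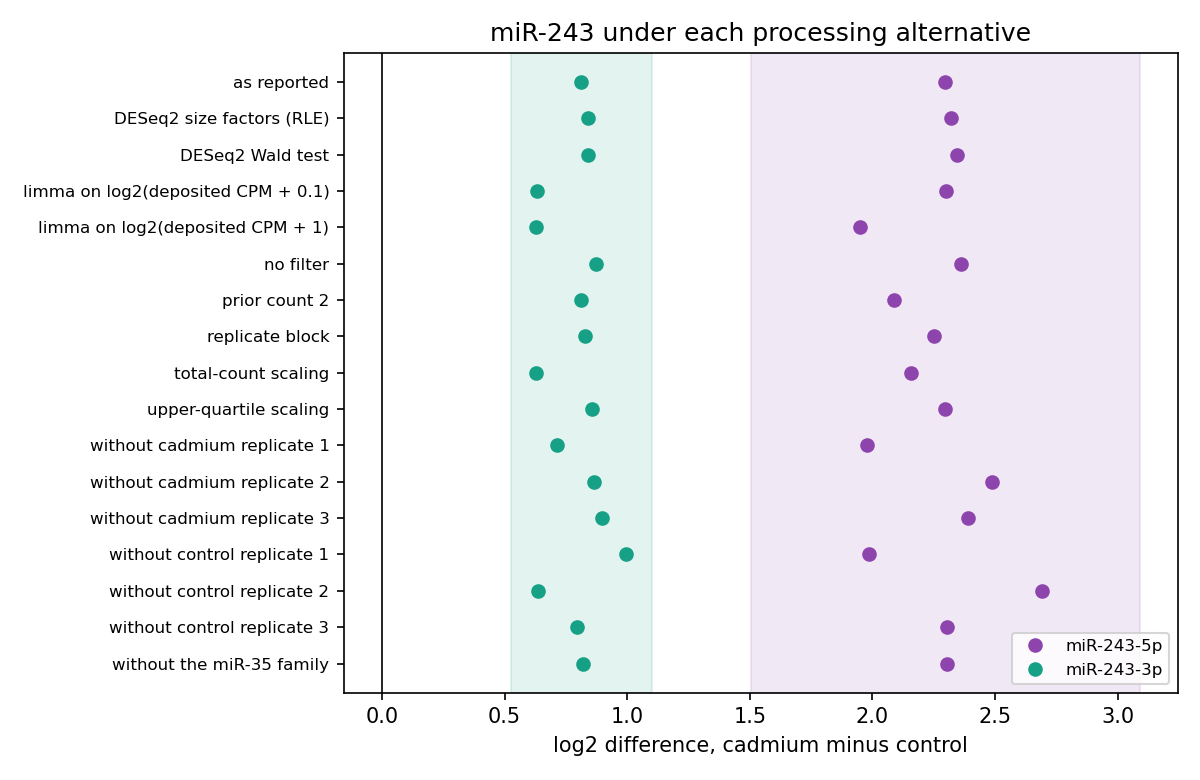
Log2 difference (cadmium minus control) of miR-243-5p and miR-243-3p as reported and under each processing alternative; shaded bands are the reported value ± the pooled SD between replicates. All values lie above 0 and inside their band, from 1.95 to 2.69 for 5p and from 0.63 to 0.99 for 3p.

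Dividing the arms by each other within a library removes the scaling between libraries. The 5p arm made up 4.19% (75 of 1790 counts), 2.76% (37 of 1341) and 3.43% (29 of 845) of the miR-243 counts in cadmium replicates 1 to 3. In control replicates 1 to 3 it made up 0.364% (2 of 549), 2.48% (12 of 483) and 1.31% (12 of 919). The 3p arm was therefore the major arm in every library, with between 22.9 and 35.2 reads of 3p per read of 5p under cadmium and between 39.3 and 273.5 in controls.

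The groups did not overlap in this share, but the gap was small against counting error. The lowest cadmium share, in replicate 2, had an exact Clopper-Pearson 95% interval of 1.95 to 3.78%, and the highest control share, also in replicate 2, had an interval of 1.29 to 4.30%. That control interval overlapped the intervals of all 3 cadmium libraries. Control replicate 1, with an interval of 0.0441 to 1.31%, lay below all 3 cadmium intervals. The cadmium intervals of replicates 1 and 3 reached from 3.31 to 5.22% and from 2.31 to 4.89%, and that of control replicate 3 from 0.676 to 2.27%. The interval of control replicate 3 overlapped that of cadmium replicate 2. Reads are not independent molecules without molecular identifiers, which the labels do not mention, so all intervals cover counting error only.

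**Figure D3:**
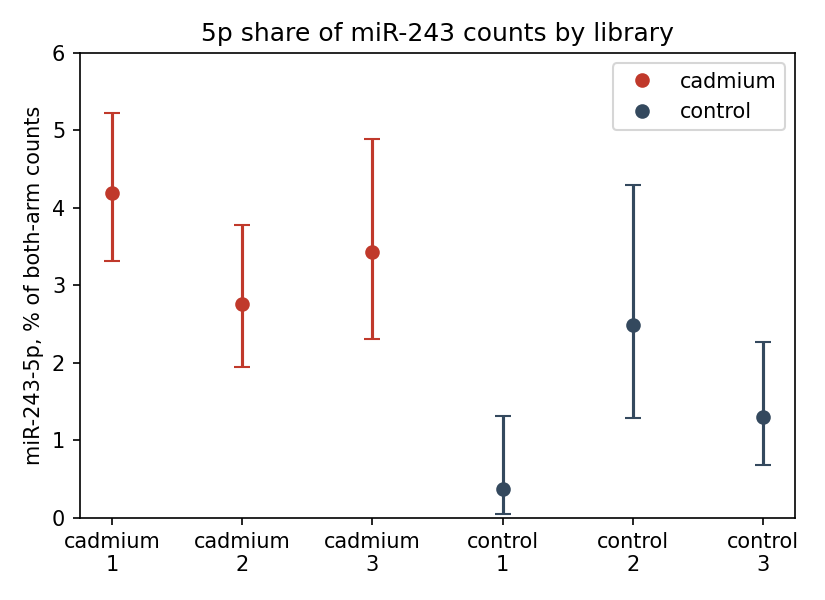
Share of miR-243 counts that came from the 5p arm in each library, in percent of the counts of both arms; bars are exact Clopper-Pearson 95% intervals. The 3 cadmium libraries lie between 2.76 and 4.19% and the 3 control libraries between 0.364 and 2.48%. The interval of control replicate 2 overlaps all 3 cadmium intervals, and that of control replicate 3 overlaps that of cadmium replicate 2.

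On the log2 scale, with 0.5 added to each count, the ratio of 5p to 3p was −4.81 ± 0.31 under cadmium and −6.40 ± 1.28 in controls (SD, n = 3 each), a difference of 1.59. The control value rested on its first replicate more than on the others. Without control replicate 1 the difference was 0.90, and without control replicate 2 it was 2.17. The authors' files allowed the same ratio for 63 hairpins with a mean of at least 10 counts in each arm. Counted from the most 3p-dominated end, miR-243 held place 24 under cadmium, between miR-1822 (−4.91) and miR-74 (−4.63), and place 16 in controls, between miR-2 (−7.04) and miR-42 (−6.38). In the mean over all 6 libraries, which mixes the groups, it held place 21 at −5.60, with miR-77 (−5.79) and miR-79 (−5.64) before it and miR-46 (−5.37) and miR-75 (−5.01) after it. In size of the difference between groups miR-243 was place 2 of 63. Groups did not overlap with a higher 5p share under cadmium in 8 of the 63 hairpins (12.7%), miR-243 among them. Nothing is read from either, since the hairpin was selected on this ratio. Its 5p arm also met the minimum mean count through its cadmium libraries, with 141 counts there in total and 26 in controls. In limma's test across hairpins 2 of the 63 changed (3.17%), and miR-243 was not among them.

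**Figure D4:**
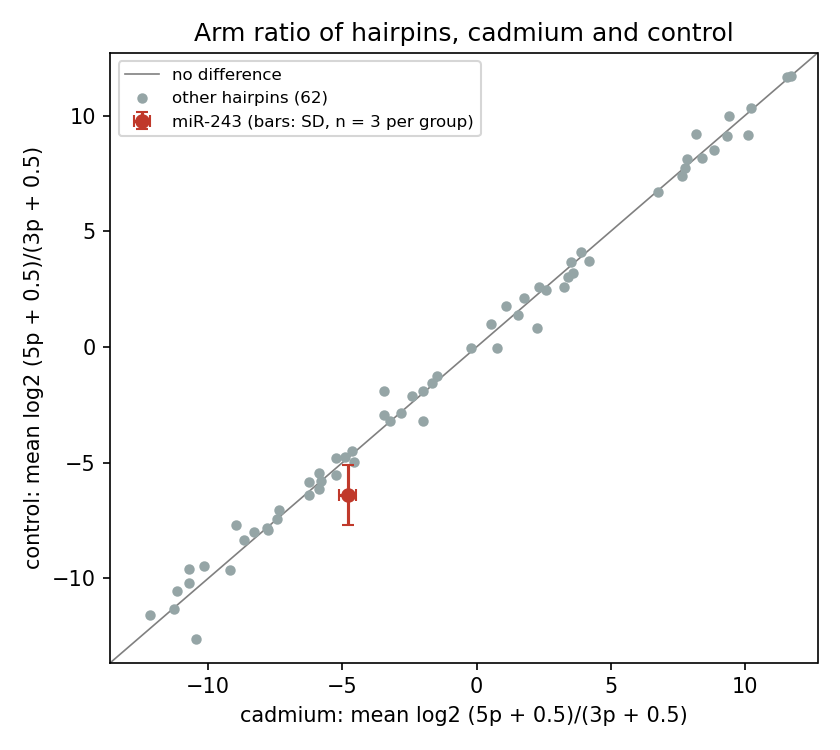
Mean log2 ratio of 5p to 3p counts (0.5 added to each) in cadmium libraries (x axis) and control libraries (y axis) for 63 hairpins; the line marks equal ratios and the bars on miR-243 are SDs over 3 libraries. miR-243 lies below the line, at −4.81 under cadmium and −6.40 in controls, and its control bar is longer than its cadmium bar.

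miR-243-5p was set beside the less counted arms of other hairpins, which need not be rare. For 62 hairpins both arms were tested, and the arm with the lower mean count was taken as the minor arm, which was 5p in 35 hairpins and 3p in 27. Of the 62 minor arms, 3 were called higher under cadmium (4.84%) and 3 lower. Over all 208 tested miRNAs, 9.62% were called higher and 12% lower. The median log2 difference of the minor arms was −0.11, against 0.0039 for all tested miRNAs. Of the minor arms called higher, miR-243-5p had been selected on this contrast and could pass the filter on its cadmium libraries alone. The other 2 were miR-45-5p and miR-46-5p. miR-45-5p had 140 CPM under cadmium and 69.0 CPM in controls, a log2 difference of 1.02, and miR-46-5p had 436 CPM under cadmium and 278 CPM in controls, a difference of 0.65. Those called lower were miR-41-3p (−1.70), which is also 1 of the 8 embryo and germline markers and had fewer counts than miR-41-5p here, miR-77-5p (−1.72) and miR-83-5p (−1.57). By mean level over all 6 libraries miR-243-5p was place 42 of the 62. With the replicate number as a block, 1 of the 62 was called.

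In 46 of the 62 hairpins the arms had fitted differences of the same sign, 27 with both higher and 19 with both lower. Both arms were called in 3 hairpins (4.84%). miR-243, selected on this contrast, was 1 of them, with the values given above. Its 5p arm could pass the filter on its cadmium libraries alone. In miR-41 both were lower, at −1.55 for 5p and −1.70 for 3p, and in miR-77 both were lower, at −1.72 for 5p and −1.84 for 3p.

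The miRNAs whose pattern over the 6 libraries was most like that of each arm were found by the root-mean-square difference of centred log2 CPM. The direction of such miRNAs follows from the way they were picked. For miR-243-3p the nearest was miR-230-3p, at 0.161 on the log2 scale, with 743 ± 191 CPM under cadmium and 417 ± 72.5 CPM in controls. It was followed by miR-45-5p (0.197), miR-2953-3p (0.203), miR-63-3p (0.215) and miR-230-5p (0.238), so that both arms of the miR-230 hairpin were among the 5. All of these had 38 counts or more in every library.

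No miRNA came as near to miR-243-5p by this measure. The measure is not scaled, so it grows with the size of a difference and with counting error. Both are larger for 5p than for 3p, and their part in these values was not tested. The nearest were miR-249-3p (0.714), miR-239b-5p (0.716), miR-239a-5p (0.727), miR-253-3p (0.756) and miR-4929 (0.766). miR-249-3p had 138 ± 7.79 CPM under cadmium and 58.5 ± 5.67 CPM in controls, and its groups were far tighter than those of miR-243-5p. miR-239b-5p and miR-4929 were themselves counted at 0 to 35 and 3 to 26 reads per library. The other arm of its own hairpin came in place 23 of 207 in likeness to 5p, at 0.977, while 5p came in place 179 in likeness to 3p. When the prior count of the log2 scale was lowered to 0.5, 3 of the 5 miRNAs nearest to 5p stayed among its nearest 5, whereas all 5 of those nearest to 3p stayed.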

How the data were processed

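Small RNA of whole worms was sequenced in 6 libraries, 3 per group, grouped by sample title. The authors deposited raw read counts, 1 value per mature miRNA and library, and their own CPM values, in which a count is divided by the listed total of its library. The submitters' processing notes name cutadapt 3.4, Bowtie2 2.4.2, HISAT2 2.2.1, StringTie 2.1.5, DESeq2, edgeR and build WBcel235 without roles. How reads matching several miRNAs were counted is not given in the sources used here. miR-44-3p and miR-45-3p had identical values, with mean levels of 81040 CPM under cadmium and 54411 CPM in controls. Both were kept in the totals of miRNAs and hairpins. A further 12 columns in tables of the whole series match no sample title and were not used.

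Counts were analysed in R 4.3.3 with edgeR 4.0.16 (filterByExpr, TMM scaling on full library totals, quasi-likelihood F test, no covariates, fitted prior count 0.125, Benjamini-Hochberg adjustment over 208 miRNAs, threshold 0.05). The 208 held at least 99.985% of each library's counts. Arm ratios used limma 3.58.1, and DESeq2 1.42.0 served as an alternative. The fit was tested on simulated data. Likeness used a prior count of 2. Positions are from the Ensembl release 115 annotation, which matched 240 of 247 listed hairpin names.

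Beside both arms, the miRNAs named are their neighbours in likeness, level, chromosome position and arm ratio, the minor arms called and the tissue markers. A planned comparison of shared seeds (bases 2 to 8) was not made, and arm sequences are not shown. The hairpin, lists and tests were chosen with earlier results of these data known. Depth limits 5p, which had 2 to 75 counts per library.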

Additional observations from a re-analysis of the deposited data

How the results depend on the processing

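The log2 differences of both miR-243 arms and the difference in arm ratio moved by less than 1 SD between replicates under all 16, 16 and 8 alternatives run for 5p, 3p and the ratio. Their direction was kept, but nothing is read from this. The groups did not overlap in these values, so leaving out a library could hardly reverse a direction. With 1 library left out they ran from 1.98 to 2.69 for 5p, from 0.64 to 0.99 for 3p and from 0.90 to 2.17 for the ratio. The SD of the ratio, 0.93, includes control replicate 1 with its 2 counts of 5p, so this criterion is loose. With 1 library left out, 22 to 52 miRNAs were called instead of 45, and 0 to 7 hairpins instead of 2 changed arm ratio in limma. The 0 came without cadmium replicate 2, control replicate 1 or control replicate 3, and the hairpins at an unadjusted p under 0.05 then numbered 9, 6 and 7. Of the 5 miRNAs most like 5p, 3 stayed with a prior count of 0.5. The cause of these shifts was not tested.

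Replicate numbers are shared between groups, but the labels give no batch, so the numbers were not taken as pairs. Deviations from the group means correlated at −0.045, −0.29 and −0.31 between libraries of equal number. Such values from the same data do not settle whether the numbers mark pairs. With the replicate number as a block, 17 miRNAs, 1 minor arm and 0 arm ratios (7 at an unadjusted p under 0.05) were called, with log2 differences of 2.25 for 5p, 0.83 for 3p and 1.59 for the ratio, and neither miR-243 arm was called. The block is balanced over the groups, so it could not change the ratio difference. A stricter minimum of 50 counts per arm removed miR-243 from the ratio test. Depth limits 5p, with 2 to 75 counts per library.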
